A study of Homo sapiens with 24 samples.

Results

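The genes described here are 36 of the 61251 in the deposited expression table, taken by symbol from a fixed list of lysosomal hydrolases, lysosomal membrane proteins, subunits of the vacuolar proton pump (V-ATPase) and the MiT/TFE transcription factors. The 17 acid hydrolases, activators and lumenal transfer proteins, 7 membrane proteins, 9 V-ATPase subunits and 3 transcription factors all matched a row of the table. Their mRNA was measured by RNA sequencing of KYSE450, an established human oesophageal squamous cell carcinoma line, in 24 libraries. The 4 groups of 6 libraries were drug tolerant persister (DTP) cells of a chemoresistant line titled KYSE450DDP, that chemoresistant line itself, DTP cells of parental KYSE450, and parental KYSE450. All carry the genotype label WT and grew in RPMI-1640 with serum. The labels list no treatment of the sequenced cultures, name neither the drug nor its dose, and do not spell out DDP. Separate cultures for the 6 libraries of a group are not stated either. The p-values therefore reflect the spread among libraries, and that spread may be technical.

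Lysosomes are acidic organelles in which hydrolases break down proteins, glycans, lipids and glycogen delivered by endocytosis and autophagy. The V-ATPase pumps protons into the lumen with a soluble V1 sector that hydrolyses ATP and a V0 sector set in the membrane, and the low pH activates the hydrolases. TFEB, TFE3 and MITF are related basic helix-loop-helix leucine zipper factors. In their active state they enter the nucleus and bind an E-box with the core CACGTG, found in promoters of many lysosomal genes and known there as the CLEAR element. Their activity is set largely by phosphorylation at the lysosome surface, which an mRNA level does not measure.

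Recovered library totals ran from 14947379 to 37989445 reads. Squamous markers were abundant in every group, with mean KRT5, a basal keratin, between 1163 and 2382 FPKM (reads per kilobase of gene, scaled to library size). Summed over 10 squamous markers, the level per library was 5550 to 6560 FPKM in chemoresistant DTP, 4720 to 5520 in chemoresistant, 2870 to 3480 in parental DTP and 4740 to 5230 in parental cells. Against its own line, chemoresistant DTP had 4 of the 10 higher and 1 lower (20.5% and 27.4% of all genes tested). Parental DTP had 3 higher and 6 lower against parental cells (45.8% and 19.7% of all genes). In chemoresistant against parental cells 5 were higher and 5 lower (48.2% and 29.4%), 2 of them at least 2-fold (13.3%). In chemoresistant DTP against parental DTP 6 were higher and 4 lower (29.5% and 32.3%), 4 of them at least 2-fold (5.25%). Of 10 macrophage and leukocyte markers only LYZ reached the level needed for a test, and C1QA, C1QB and TYROBP were at 0 in all libraries. None of the 8 melanocyte markers reached that level, and their summed level per library was 0.588 to 1.21 FPKM. None of the 6 endothelial markers reached it, while 4 of 8 fibroblast markers did, with COL1A1 at 5.32 FPKM in chemoresistant DTP, 6.45 in chemoresistant, 2.31 in parental DTP and 2.37 in parental cells. Summed fibroblast markers were 2.76 to 14.3, 4.44 to 19.4, 1.46 to 5.84 and 2.80 to 7.55 FPKM per library in chemoresistant DTP, chemoresistant, parental DTP and parental cells. The nuclear-retained RNA MALAT1 averaged 22.3 FPKM in chemoresistant DTP, 16.8 in chemoresistant, 33.4 in parental DTP and 24.6 in parental cells, and NEAT1 averaged 29.4, 24.6, 22.6 and 6.95 in that order, so that both were higher in both DTP comparisons. The part of these markers in the results was not tested. Library 2 of chemoresistant DTP and libraries 5 and 6 of parental DTP stood apart from the rest of their groups. Results that rest on them are given with and without them below.

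Promoter windows from RefSeq (build GRCh38.p14), running from 250 bases before to 50 bases after the start site, were available for 24 of the 36 genes and for 27305 genes in all. The 8 letters GTCACGTG, searched on both strands, occurred in 6 of the 24 windows, those of CTSA, CTSD, GAA, LAMP1, MCOLN1 and ATP6V0D1, against 2.53% of all windows. The overlapping TCACGTGA occurred in 5 of the 24, all of these but CTSD, against 1.04% of all windows. The shared core CACGTG occurred in 8 of the 24, the same 6 with NEU1 and CD63, against 7.43% of all windows. These matches describe sequence only and no binding was measured. The 6 stretches are printed below from 5′ to 3′ on the strand of the gene, because the factors measured here are known to bind this type of element. Capitals mark the bases covered by any of the 3 searches, on either strand.
CTSA, chr20:45891251-45891344, plus strand: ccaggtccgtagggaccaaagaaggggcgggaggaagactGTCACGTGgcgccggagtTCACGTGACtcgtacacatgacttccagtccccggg
CTSD, chr11:1763927-1764014, minus strand: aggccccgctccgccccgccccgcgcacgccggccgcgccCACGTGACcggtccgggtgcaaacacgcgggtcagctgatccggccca
GAA, chr17:80101463-80101590, plus strand: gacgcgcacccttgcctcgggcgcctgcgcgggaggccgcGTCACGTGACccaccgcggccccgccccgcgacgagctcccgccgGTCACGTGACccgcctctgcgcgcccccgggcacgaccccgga
LAMP1, chr13:113297005-113297248, plus strand: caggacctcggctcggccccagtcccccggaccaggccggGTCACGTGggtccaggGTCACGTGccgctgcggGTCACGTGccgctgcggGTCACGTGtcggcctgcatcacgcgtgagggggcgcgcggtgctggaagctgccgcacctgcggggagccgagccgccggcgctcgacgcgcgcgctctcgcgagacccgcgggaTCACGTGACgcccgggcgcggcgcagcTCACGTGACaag
MCOLN1, chr19:7522541-7522633, plus strand: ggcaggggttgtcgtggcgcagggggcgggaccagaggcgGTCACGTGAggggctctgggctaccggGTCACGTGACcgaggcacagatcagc
ATP6V0D1, chr16:67481170-67481258, minus strand: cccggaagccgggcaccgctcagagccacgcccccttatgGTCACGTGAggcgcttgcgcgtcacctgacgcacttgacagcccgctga
LAMP1 held 6 copies of the core, the first starting 192 bases and the last 1 base before the start site. CTSA, GAA and MCOLN1 held 2 copies each, and CTSD and ATP6V0D1 held 1 each, at 47 and 59 bases before the start site.

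Summed over all 36 genes, the level per library was 711 to 832 FPKM in chemoresistant DTP, 707 to 754 in chemoresistant, 578 to 638 in parental DTP and 570 to 625 in parental cells. Both groups of the chemoresistant line therefore lay above both groups of the parental line, whereas each DTP group overlapped its own line. In bulk RNA, a change in the make-up of a culture and a change in RNA per cell cannot be told apart. PSAP, the precursor of the saposins that activate sphingolipid hydrolases, had the highest mean level in every group, at 157, 153, 119 and 108 FPKM in chemoresistant DTP, chemoresistant, parental DTP and parental cells. HEXA, the alpha subunit of beta-hexosaminidase, was the lowest hydrolase, at 0.832, 0.860, 0.748 and 0.565 FPKM in the same order. TFE3 was the main factor mRNA, at 29.6 to 34.9 times the level of the lowest of the 3 factors in each group.

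**Figure D1:**
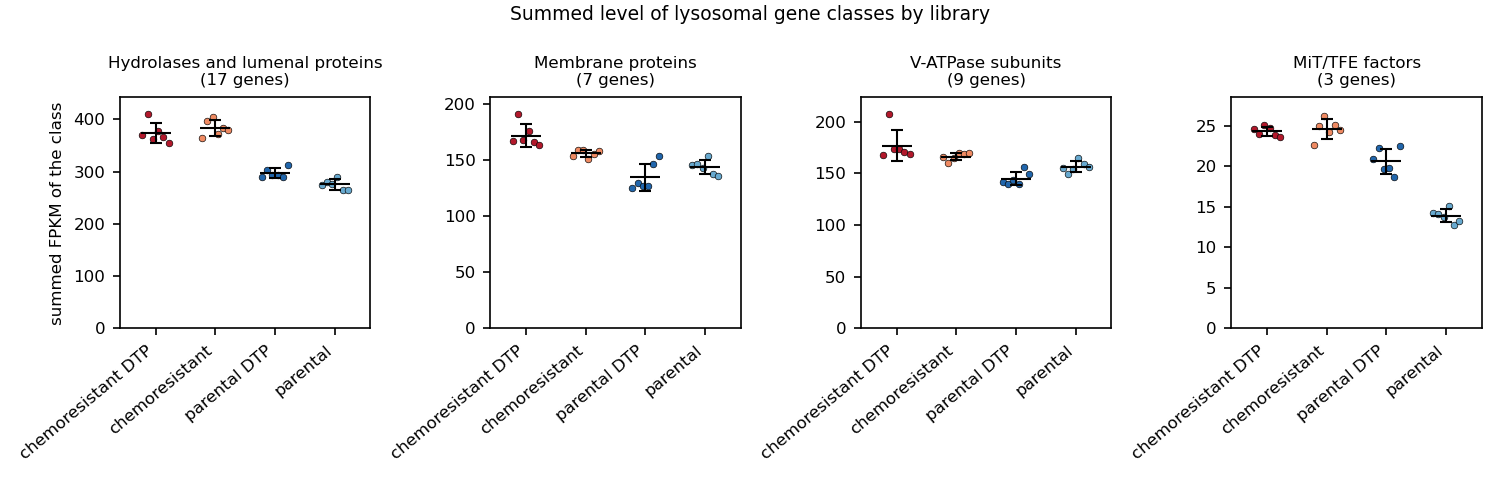
Summed FPKM of the members of each class (y axis, linear, from 0) in every library (points), by group (x axis), with the mean and SD of 6 libraries (bars). The summed factors have medians of 24.3 FPKM in chemoresistant DTP, 24.7 in chemoresistant, 20.4 in parental DTP and 13.9 in parental cells, and library 2 of chemoresistant DTP is the highest of its group in the first 3 panels.

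The 5 comparisons were made with limma on log2(FPKM + 1), and differences below are on that scale, which understates changes of genes at low levels. A change is called at least 2-fold throughout if the difference on that scale is at least 1. Genes at low levels, such as MITF, can exceed a 2-fold ratio of FPKM and not be counted. Tests covered the 13729 genes whose mean reached 1 FPKM in any group, and a gene passed at an adjusted p under 0.05. Of the 36 members 34 were tested. TFEB and HEXA fell under the filter, MITF met it only through parental DTP, and GPNMB only through both groups of the chemoresistant line. The comparisons share groups and are not independent of each other.

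In parental DTP against parental cells, 14 of 34 members (41.2%) were higher, against a background of 45.8% of all genes tested, and 8 (23.5%) were lower, against 19.7%. None changed at least 2-fold by the rule above, against 3.42% of all genes. However, the mean FPKM of MITF and the median FPKM of SGSH rose by more than 2-fold, as given below. The median difference of the members was 0.04, against 0.14 for all genes. The members' shares were thus close to the background. In chemoresistant DTP against chemoresistant cells, 5 (14.7%) were higher, against 20.5%, and 11 (32.4%) were lower, against 27.4%. None changed at least 2-fold, against 1.38%, and the median was -0.05, against -0.02. The 2 DTP changes differed from each other in 24 members. The change in the chemoresistant line minus that in the parental line was positive in 8 (23.5%, background 20.5%) and negative in 16 (47.1%, background 43.4%). In 2 of them, SGSH and ATP6V1E1, it was at least 2-fold, against 9.04% of all genes.

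Differences between the lines were more frequent. In chemoresistant against parental cells, 23 members (67.6%) were higher, against a background of 48.2%, and 7 (20.6%) were lower, against 29.4%. CTSB, SGSH, SCARB2 and GPNMB changed at least 2-fold by the rule above, against 13.3% of all genes, and the median was 0.27, against 0.14. MITF is not among them, although its ratio of mean FPKM, given below, was larger than 2-fold. In chemoresistant DTP against parental DTP, 23 (67.6%) were higher, against 29.5%, and 6 (17.6%) were lower, against 32.3%. CTSD and GPNMB changed at least 2-fold, against 5.25% of all genes, and the median was 0.27, against -0.02 for all genes. The share of higher members lay above the background in both states. The members were chosen with earlier results of these data known, so this excess is a description and no independent support. Of 108 other genes linked to lysosomes, described below, 53.7% were higher in chemoresistant cells and 25.9% in chemoresistant DTP.

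Of the factors, TFE3 and MITF had their lowest levels in parental cells, whereas the groups of TFEB overlapped. TFE3 had a lowest, median and highest level of 22.01, 22.7 and 23.4 FPKM in chemoresistant DTP, 21.0, 22.9 and 24.5 in chemoresistant, 17.3, 18.5 and 20.9 in parental DTP, and 11.9, 12.9 and 14.1 in parental cells. All 6 parental libraries lay below every other library, and both groups of the chemoresistant line overlapped. TFE3 was higher in parental DTP than in parental cells by 0.51 ± 0.05 (SE, limma adjusted p = 9.98e-10) and higher in chemoresistant than in parental cells by 0.78 ± 0.05 (adjusted p = 1.51e-13). Its difference of -0.01 ± 0.05 between chemoresistant DTP and chemoresistant cells did not pass (adjusted p = 0.891), and the 2 DTP changes differed by -0.52 ± 0.07 (adjusted p = 2.33e-07). Between the DTP groups TFE3 was higher in the chemoresistant one by 0.25 ± 0.05 (adjusted p = 4.69e-05).

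MITF, the family member best known from melanocytes, had 0.721, 0.914 and 1.07 FPKM in chemoresistant DTP, 0.870, 0.975 and 1.03 in chemoresistant, 0.964, 1.19 and 1.28 in parental DTP, and 0.310, 0.381 and 0.417 in parental cells. Every parental library was again below all others, on 46 to 86 reads per parental library against 103 to 325 in parental DTP. The mean ratio was 3.08 for parental DTP over parental cells and 2.59 for chemoresistant over parental cells. Differences were 0.64 ± 0.05 in parental DTP (limma adjusted p = 1.93e-11) and 0.52 ± 0.05 in chemoresistant cells (adjusted p = 3.59e-10), both against parental cells. With a pseudocount of 0.1 FPKM these were 1.40 and 1.17. MITF was tested only because its mean reached 1 FPKM in parental DTP, so the filter favoured a call of higher there. In chemoresistant DTP it did not pass against chemoresistant cells (-0.05 ± 0.05, adjusted p = 0.379) and was lower than in parental DTP by -0.18 ± 0.05 (adjusted p = 0.00197), with overlapping libraries. As stated above, melanocyte markers were near 0 in all groups.

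TFEB reached at most 0.863 FPKM in any library. It had 0.562, 0.764 and 0.863 FPKM in chemoresistant DTP, 0.644, 0.795 and 0.845 in chemoresistant, 0.422, 0.599 and 0.692 in parental DTP, and 0.480, 0.554 and 0.696 in parental cells. All groups overlapped. With the filter removed, TFEB was higher in chemoresistant than in parental cells by 0.18 ± 0.05 (limma adjusted p = 0.0066) and in chemoresistant DTP than in parental DTP by 0.14 ± 0.05 (adjusted p = 0.042), and did not pass in chemoresistant DTP (adjusted p = 0.855) or parental DTP (adjusted p = 0.962).

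**Figure D2:**
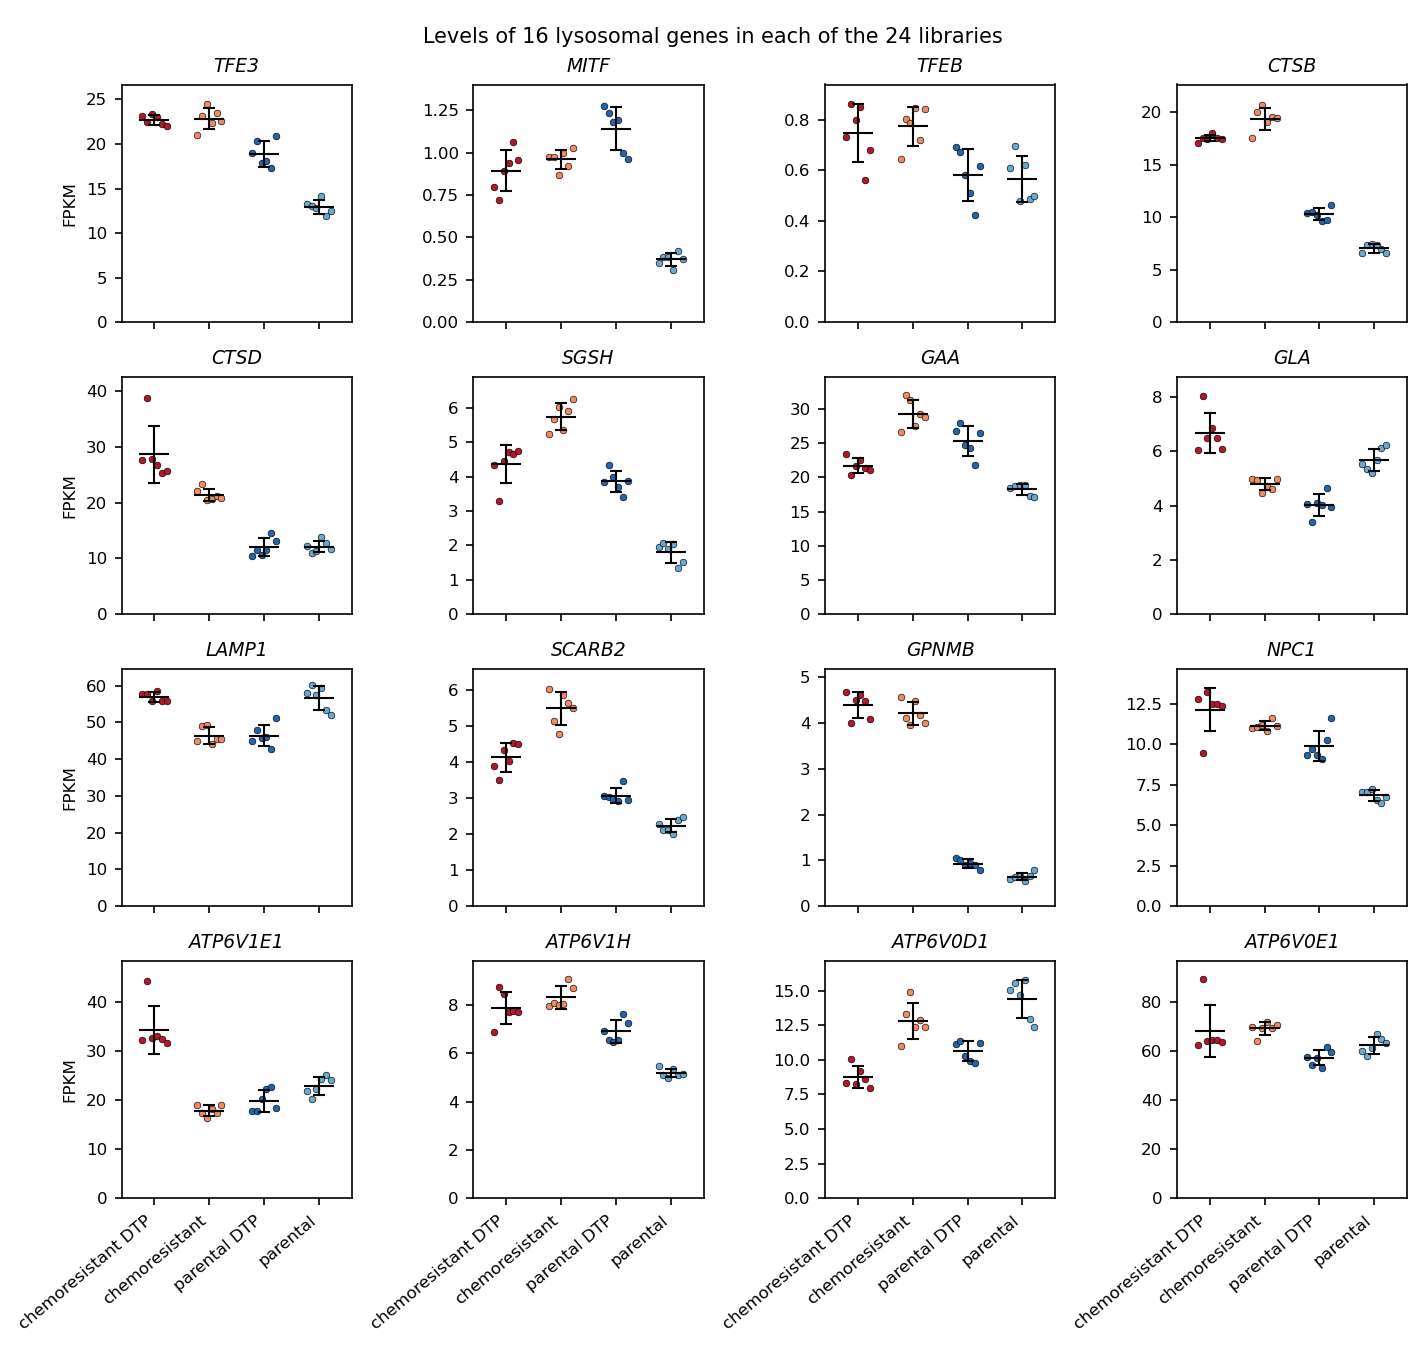
Levels in FPKM (y axes, linear, from 0) of 16 members in each of the 24 libraries (points), by group (x axis), with the mean and SD of 6 libraries (bars). For TFE3, MITF, CTSB, SGSH, GAA, SCARB2, GPNMB, NPC1 and ATP6V1H every parental library lies below all others. The point at 44.2 FPKM of ATP6V1E1 and that at 38.8 FPKM of CTSD are library 2 of chemoresistant DTP.

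Among the proteases, CTSB (cathepsin B, a cysteine protease) rose in parental DTP and was higher still in the chemoresistant line. Its lowest, median and highest levels were 17.1, 17.5 and 18.0 FPKM in chemoresistant DTP, 17.6, 19.5 and 20.7 in chemoresistant, 9.61, 10.3 and 11.2 in parental DTP, and 6.55, 7.17 and 7.45 in parental cells. Only the chemoresistant line's own 2 groups overlapped. The difference was 1.34 ± 0.04 for chemoresistant against parental cells (limma adjusted p = 3.49e-19) and 0.72 ± 0.04 for chemoresistant DTP against parental DTP (adjusted p = 2.18e-13). The DTP changes ran in opposite directions, -0.14 ± 0.04 in the chemoresistant line and 0.49 ± 0.04 in the parental line, and differed by -0.62 ± 0.06 (adjusted p = 2.18e-09).

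CTSD (cathepsin D, an aspartic protease) had 25.4, 27.2 and 38.8 FPKM in chemoresistant DTP, 20.4, 21.1 and 23.3 in chemoresistant, 10.5, 11.6 and 14.6 in parental DTP, and 11.0, 11.97 and 13.8 in parental cells. Both parental groups overlapped, and every library of the chemoresistant line lay above them. CTSD was higher in chemoresistant DTP than in parental DTP by 1.19 ± 0.09 (limma adjusted p = 1.43e-11) and in chemoresistant than in parental cells by 0.78 ± 0.09 (adjusted p = 1.32e-08). Within the chemoresistant line it was higher in DTP cells by 0.39 ± 0.09 (adjusted p = 0.000563), or by 0.30 without library 2 (adjusted p = 0.000598). In parental DTP the difference of -0.02 ± 0.09 did not pass (adjusted p = 0.845). CTSL, a further cysteine protease, was higher in the chemoresistant line in both states (0.72 ± 0.06 against parental cells, 0.66 ± 0.06 between DTP groups). CTSL passed in neither DTP comparison, although without chemoresistant DTP library 2 it was lower by -0.15 in chemoresistant DTP (adjusted p = 0.0102). CTSZ, a carboxypeptidase, was lower in both states of the chemoresistant line (-0.23 ± 0.08 and -0.30 ± 0.08).

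SGSH, GAA, NAGLU, GUSB and GLA, which act on glycans, glycogen or glycolipids, were called in opposite directions in the 2 DTP comparisons. The sialidase NEU1 passed in neither (0.07 in chemoresistant DTP, adjusted p = 0.338, and 0.01 in parental DTP, adjusted p = 0.898, limma), and HEXA was under the filter. SGSH, a sulfatase that degrades heparan sulfate, had 3.28, 4.55 and 4.74 FPKM in chemoresistant DTP, 5.25, 5.79 and 6.27 in chemoresistant, 3.41, 3.87 and 4.34 in parental DTP, and 1.34, 1.92 and 2.06 in parental cells. No library of a DTP group overlapped its own line. SGSH was lower in chemoresistant DTP by -0.34 ± 0.07 (limma adjusted p = 0.000549) and higher in parental DTP by 0.80 ± 0.07 (adjusted p = 1.2e-09), a difference of -1.14 ± 0.10 (adjusted p = 1.17e-09). GAA, which degrades glycogen, had 20.4, 21.5 and 23.4 FPKM in chemoresistant DTP, 26.7, 29.1 and 32.0 in chemoresistant, 21.8, 25.6 and 27.9 in parental DTP, and 17.2, 18.6 and 18.9 in parental cells. Neither DTP group of GAA overlapped its own line. Its changes were -0.41 ± 0.05 in chemoresistant DTP and 0.45 ± 0.05 in parental DTP, and they differed by -0.86 ± 0.08 (adjusted p = 6.24e-10).

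GLA (alpha-galactosidase A) moved the other way. It had 6.06, 6.49 and 8.04 FPKM in chemoresistant DTP, 4.48, 4.84 and 5.00 in chemoresistant, 3.40, 4.05 and 4.64 in parental DTP, and 5.22, 5.62 and 6.23 in parental cells. Each DTP group was again clear of its own line. GLA was higher in chemoresistant DTP by 0.40 ± 0.06 (limma adjusted p = 4.67e-06) and lower in parental DTP by -0.41 ± 0.06 (adjusted p = 1.39e-06), so that the DTP changes differed by 0.82 ± 0.08 (adjusted p = 7.77e-09). NAGLU, which acts on heparan sulfate as SGSH does, and GUSB (beta-glucuronidase) followed the direction of SGSH with smaller values, -0.16 ± 0.04 and -0.26 ± 0.06 in chemoresistant DTP and 0.21 ± 0.04 and 0.17 ± 0.06 in parental DTP. In parental DTP neither call held under relative log expression scaling (0.11 and 0.07), and that of GUSB was lost without parental DTP libraries 5 and 6 (0.13, adjusted p = 0.057).

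CTSA, a carboxypeptidase that also stabilises the sialidase NEU1, was lower in parental DTP by -0.33 ± 0.05 (limma adjusted p = 1.29e-06). In chemoresistant DTP it was lower by -0.12 ± 0.05 (adjusted p = 0.0413). That call was lost without any of chemoresistant libraries 2, 3, 5 and 6 or chemoresistant DTP libraries 1, 3, 4, 5 and 6 (values from -0.13 to -0.09, adjusted p up to 0.116) and with relative log expression scaling (adjusted p = 0.0993). CTSA was higher in the chemoresistant line in both states, by 0.27 ± 0.05 and 0.48 ± 0.05. NEU1 itself passed only between the lines (0.17 ± 0.06 and 0.23 ± 0.06), the first lost under relative log expression scaling (0.10, adjusted p = 0.165). PSAP was higher in the chemoresistant line by 0.50 ± 0.04 than in parental cells and 0.40 ± 0.04 in DTP cells. Its rise of 0.13 ± 0.04 in parental DTP fell to 0.02 under relative log expression scaling (adjusted p = 0.742).

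NPC2, a soluble cholesterol transfer protein, was lower in chemoresistant DTP than in chemoresistant cells by -0.34 ± 0.10 (limma adjusted p = 0.00724) and higher in chemoresistant than in parental cells by 0.72 ± 0.10 (adjusted p = 4.9e-07). Its rise of 0.27 ± 0.10 between the DTP groups (adjusted p = 0.0221) was lost without chemoresistant DTP library 2 (0.20, adjusted p = 0.0681) or parental DTP library 5 (0.19 to 0.30 over single libraries, adjusted p up to 0.0738), or without parental DTP libraries 5 and 6 (0.18, adjusted p = 0.113). The lipid hydrolase ASAH1 (acid ceramidase) and the protease TPP1 were lower in chemoresistant DTP by -0.11 ± 0.04 and -0.10 ± 0.04 and higher in chemoresistant than in parental cells by 0.25 ± 0.04 and 0.17 ± 0.04. The TPP1 fall (adjusted p = 0.0415) was lost without any of chemoresistant libraries 1 to 5 or chemoresistant DTP libraries 2 and 4 (adjusted p up to 0.0889). The rise of ASAH1 between the DTP groups, 0.10 ± 0.04, was lost without parental DTP library 5 or chemoresistant DTP library 5 or 6 (adjusted p up to 0.0531), or without parental DTP libraries 5 and 6 together (0.07, adjusted p = 0.138).

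PPT1, which removes palmitate from proteins, was lower in chemoresistant than in parental cells by -0.18 ± 0.04 (limma adjusted p = 0.000538) and higher in chemoresistant DTP than in chemoresistant cells by 0.12 ± 0.04 (adjusted p = 0.0238). The second call was lost without chemoresistant library 2 or 3 or chemoresistant DTP library 5 or 6 (0.10 to 0.14, adjusted p up to 0.0713). In parental DTP its difference of -0.09 ± 0.04 did not pass, but did without parental library 3 or parental DTP library 5 (adjusted p down to 0.0108) and without parental DTP libraries 5 and 6 (-0.12, adjusted p = 0.0171). Under relative log expression scaling it was -0.20 (adjusted p = 1.11e-05). PPT1 shares 23.4% of its exon bases with CAP1 on the opposite strand, which averaged 62.8 FPKM against 32.9 for PPT1. Strand use in counting is not given in the sources used here, so reads of the pair cannot be told apart. Some other members overlapped opposite-strand genes at lower levels, such as CTSA with PLTP (4.52 FPKM) and CD63 with AC009779.2 (5.16 FPKM). The partners of NPC1 and ATP6V1D, given below, did not stand lower. CTSD shares 41.7% of its exon bases with AC068580.4 on the same strand, which averaged 0.0516 FPKM against 18.6 for CTSD. HEXA, with the filter removed, was higher by 0.16 ± 0.05 in parental DTP (adjusted p = 0.0148) and by 0.25 ± 0.05 in chemoresistant cells (adjusted p = 0.000153), both against parental cells. In all, of the 16 tested hydrolases and lumenal proteins, 6 were higher and 2 lower in parental DTP, and 3 higher and 9 lower in chemoresistant DTP. In parental DTP these are 37.5% and 12.5%, against 45.8% and 19.7% of all genes, and in chemoresistant DTP 18.8% and 56.2%, against 20.5% and 27.4%. Between the lines, 12 were higher and 3 lower in chemoresistant cells (75.0% and 18.8%, against 48.2% and 29.4%), and 10 higher and 3 lower in chemoresistant DTP (62.5% and 18.8%, against 29.5% and 32.3%).

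**Figure D3:**
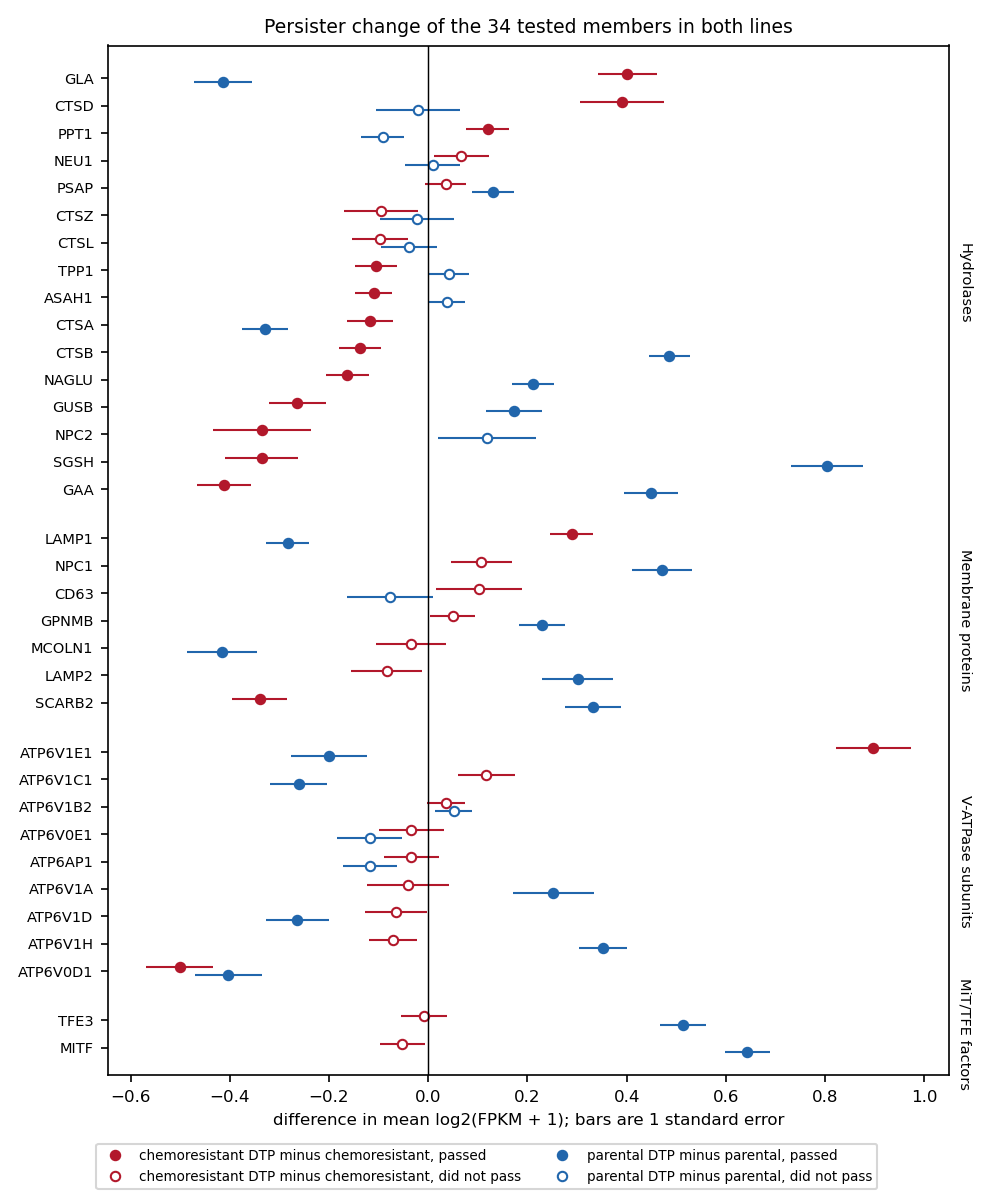
Change in the DTP state of the 34 tested members (rows, by class) as the difference in mean log2(FPKM + 1) (x axis) with 1 standard error (bars), for the chemoresistant line (red) and the parental line (blue), where filled points passed. SGSH lies at -0.34 in the chemoresistant line and 0.80 in the parental line, and ATP6V1E1 at 0.90 and -0.20.

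LAMP1, an abundant glycoprotein of the lysosomal membrane, showed mirrored DTP changes. It had 55.7, 56.8 and 58.5 FPKM in chemoresistant DTP, 44.3, 45.5 and 49.4 in chemoresistant, 42.8, 45.8 and 51.1 in parental DTP, and 52.1, 57.7 and 60.1 in parental cells. The DTP group lay above its line in the chemoresistant case and below it in the parental case. Differences were 0.29 ± 0.04 in chemoresistant DTP (limma adjusted p = 6.71e-06) and -0.28 ± 0.04 in parental DTP (adjusted p = 4.18e-06), which differed by 0.57 ± 0.06 (adjusted p = 1.86e-08). Its paralog LAMP2 was higher in parental DTP by 0.30 ± 0.07 and in chemoresistant than in parental cells by 0.52 ± 0.07. LAMP2 did not pass between the DTP groups (0.13 ± 0.07), but did without parental DTP library 5 or chemoresistant DTP library 2 (up to 0.19, adjusted p down to 0.0156) or under relative log expression scaling (0.16, adjusted p = 0.0178).

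SCARB2, the receptor that carries glucocerebrosidase to lysosomes, had 3.50, 4.18 and 4.53 FPKM in chemoresistant DTP, 4.78, 5.58 and 6.03 in chemoresistant, 2.94, 3.01 and 3.48 in parental DTP, and 2.00, 2.21 and 2.48 in parental cells. The 4 groups did not overlap. SCARB2 was higher in chemoresistant than in parental cells by 1.00 ± 0.06 (limma adjusted p = 3.62e-14), lower in chemoresistant DTP than in chemoresistant cells by -0.34 ± 0.06 and higher in parental DTP than in parental cells by 0.33 ± 0.06. The DTP changes differed by -0.67 ± 0.08 (adjusted p = 7.99e-08).

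GPNMB, a transmembrane glycoprotein of melanosomes and lysosomes, had the largest line difference of the members. It had 3.99, 4.496 and 4.68 FPKM in chemoresistant DTP, 3.96, 4.14 and 4.57 in chemoresistant, 0.793, 0.918 and 1.05 in parental DTP, and 0.545, 0.646 and 0.782 in parental cells. Every library of the chemoresistant line lay above every parental-line library, and its 2 groups overlapped each other. Mean ratios were 6.5 for chemoresistant over parental cells and 4.72 for chemoresistant DTP over parental DTP. The differences were 1.66 ± 0.05 (limma adjusted p = 3.41e-20) and 1.48 ± 0.05 (adjusted p = 1.05e-18). With a pseudocount of 0.1 FPKM, which damps differences at low levels less, the first was 2.53. The gene was tested only because both groups of the chemoresistant line reached 1 FPKM, so the filter favoured its calls between the lines. GPNMB rose in parental DTP by 0.23 ± 0.05 (adjusted p = 0.000124), and its change of 0.05 ± 0.05 in chemoresistant DTP did not pass (adjusted p = 0.401).

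NPC1, the membrane protein that exports cholesterol handed over by NPC2, had 9.47, 12.5 and 13.2 FPKM in chemoresistant DTP, 10.8, 11.1 and 11.6 in chemoresistant, 9.07, 9.52 and 11.6 in parental DTP, and 6.37, 6.89 and 7.25 in parental cells. Parental libraries lay below all others, and the remaining 3 groups overlapped. NPC1 was higher in parental DTP by 0.47 ± 0.06 (limma adjusted p = 3.52e-07) and in chemoresistant cells by 0.63 ± 0.06 (adjusted p = 1.26e-09), both against parental cells. In chemoresistant DTP it did not pass against chemoresistant cells (0.11 ± 0.06), but was higher by 0.17 without library 2, its lowest (adjusted p = 0.00306). NPC1 shares 6.0% of its exon bases with RMC1 on the opposite strand, which had a similar mean level. MCOLN1, a calcium-permeable channel of the lysosome, was lower in parental DTP by -0.42 ± 0.07 (adjusted p = 1.34e-05) and higher in chemoresistant DTP than in parental DTP by 0.33 ± 0.07. CD63, a tetraspanin of late endosomes, was higher in chemoresistant DTP than in parental DTP by 0.36 ± 0.09 (0.28 without chemoresistant DTP library 2). Without parental DTP libraries 5 and 6 it was also lower in parental DTP than in parental cells by -0.22 (adjusted p = 0.00875), against -0.08 ± 0.09 with them. The difference of its DTP changes was then 0.33 (adjusted p = 0.0047), against 0.18 with them (adjusted p = 0.203). Against parental cells, its 0.18 ± 0.09 in chemoresistant cells did not pass, but did without parental library 4 (adjusted p = 0.0373) or when only the libraries of these 2 groups were fitted (adjusted p = 0.000952). Of the 7 membrane proteins, 4 were higher and 2 lower in parental DTP, 1 higher and 1 lower in chemoresistant DTP, 4 higher and 1 lower in chemoresistant cells, and 6 higher in chemoresistant DTP against parental DTP. The higher and lower shares were 57.1% and 28.6% in parental DTP (45.8% and 19.7% of all genes), 14.3% each in chemoresistant DTP (20.5% and 27.4%) and 57.1% and 14.3% in chemoresistant cells (48.2% and 29.4%). Between the DTP groups 85.7% were higher, against 29.5%, and none was lower, against 32.3%.

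V-ATPase subunits did not move as a block. ATP6V1E1, a stator subunit of V1, had 31.7, 32.5 and 44.2 FPKM in chemoresistant DTP, 16.3, 17.8 and 19.0 in chemoresistant, 17.7, 19.3 and 22.6 in parental DTP, and 20.2, 23.1 and 25.0 in parental cells. Every chemoresistant DTP library lay above all 18 others. ATP6V1E1 was higher in chemoresistant DTP than in chemoresistant cells by 0.90 ± 0.08 (limma adjusted p = 8.78e-10) and than in parental DTP by 0.76 ± 0.08 (adjusted p = 5.77e-09). Without its highest library, library 2, these were 0.82 and 0.68. In parental DTP it was lower by -0.20 ± 0.08 (adjusted p = 0.0241), a call lost without any of parental libraries 4 and 5 or parental DTP libraries 1, 2 and 6 (-0.24 to -0.17, adjusted p up to 0.0637) or without the filter (adjusted p = 0.0537). The DTP changes differed by 1.10 ± 0.11 (adjusted p = 3.98e-09).

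ATP6V0D1, which joins the membrane ring to the central stalk, was lower in both DTP groups. It had 7.95, 8.48 and 10.1 FPKM in chemoresistant DTP, 11.0, 12.6 and 14.9 in chemoresistant, 9.76, 10.7 and 11.4 in parental DTP, and 12.4, 14.9 and 15.8 in parental cells. Neither DTP group overlapped its own line. The differences were -0.50 ± 0.07 in chemoresistant DTP (limma adjusted p = 1.42e-06) and -0.40 ± 0.07 in parental DTP (adjusted p = 1.36e-05), and the DTP changes did not differ past the threshold (-0.10 ± 0.10, adjusted p = 0.378). With CTSA, it was the only member lower in both DTP comparisons, and the CTSA call in the chemoresistant line was narrow, as given above. Its fall of -0.16 ± 0.07 in chemoresistant against parental cells (adjusted p = 0.0367) was lost without any of parental libraries 1 to 4 or chemoresistant libraries 1, 4 and 6 (-0.20 to -0.12, adjusted p up to 0.11).

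ATP6V1H, a regulatory subunit of V1, had 6.87, 7.74 and 8.76 FPKM in chemoresistant DTP, 7.97, 8.06 and 9.07 in chemoresistant, 6.47, 6.75 and 7.64 in parental DTP, and 5.00, 5.11 and 5.46 in parental cells. Parental libraries were the lowest 6, and chemoresistant DTP overlapped both chemoresistant and parental DTP. ATP6V1H was higher in parental DTP by 0.35 ± 0.05 (limma adjusted p = 9.21e-07) and in chemoresistant cells by 0.59 ± 0.05 (adjusted p = 6.92e-11), both against parental cells, and did not pass in chemoresistant DTP (-0.07 ± 0.05). The catalytic subunit ATP6V1A was higher in parental DTP by 0.25 ± 0.08 (adjusted p = 0.00983), which fell to 0.14 without parental DTP libraries 5 and 6 (adjusted p = 0.117) and, when scaled by relative log expression, to 0.15 (adjusted p = 0.0566). Its partner in the catalytic head, ATP6V1B2, differed only between the lines (0.28 ± 0.04 and 0.27 ± 0.04). ATP6V1C1, a stator subunit, was lower in parental DTP by -0.26 ± 0.06 (adjusted p = 0.000312) and higher in chemoresistant DTP than in parental DTP by 0.35 ± 0.06. In chemoresistant DTP against its line it passed only without chemoresistant DTP library 1 (adjusted p = 0.0255).

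The rotor subunit ATP6V1D was lower in parental DTP than in parental cells by -0.26 ± 0.06 and in chemoresistant than in parental cells by -0.36 ± 0.06. Its fall between the DTP groups (-0.16 ± 0.06, limma adjusted p = 0.0267) was lost without parental DTP library 1 or 5 or chemoresistant DTP library 4 or 5 (-0.20 to -0.12, adjusted p up to 0.0857). ATP6V1D shares 6.3% of its exon bases with EIF2S1 on the opposite strand, which averaged 18.3 FPKM against 5.03. The small membrane subunit ATP6V0E1 was the most abundant subunit, at 68.1 ± 10.5, 69.2 ± 2.69, 57.3 ± 3.15 and 62.3 ± 3.27 FPKM in chemoresistant DTP, chemoresistant, parental DTP and parental cells (SD, n = 6 each). Library 2 of chemoresistant DTP stood at 89.5 FPKM, against 62.6 to 64.7 in the other 5. Without it ATP6V0E1 was lower in chemoresistant DTP than in chemoresistant cells by -0.11 (adjusted p = 0.0203), where the full set gave -0.03 ± 0.07, and its excess over parental DTP was 0.15 in place of 0.23.

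The rise of ATP6V0E1 in chemoresistant against parental cells, 0.15 ± 0.07 (limma adjusted p = 0.0414), was lost without any of parental libraries 1, 2, 3 and 6 or chemoresistant libraries 1, 3, 4, 5 and 6 (0.13 to 0.17, adjusted p up to 0.092), and with relative log expression scaling it was 0.07 (adjusted p = 0.362). Its -0.12 ± 0.07 in parental DTP did not pass, but did under that scaling (-0.22, adjusted p = 0.0105) and with only the libraries of both groups fitted (adjusted p = 0.0383). The accessory subunit ATP6AP1 was higher in the chemoresistant line by 0.24 ± 0.06 and 0.32 ± 0.06. Its -0.12 ± 0.06 in parental DTP passed only without parental library 5 or 6 or parental DTP library 2 or 6 (adjusted p down to 0.0171), or under relative log expression scaling (-0.22). Of the 9 subunits, 2 were higher and 4 lower in parental DTP, 1 higher and 1 lower in chemoresistant DTP, 5 higher and 3 lower in chemoresistant cells, and 6 higher and 2 lower in chemoresistant DTP against parental DTP. The higher and lower shares were 22.2% and 44.4% in parental DTP (45.8% and 19.7% of all genes) and 11.1% each in chemoresistant DTP (20.5% and 27.4%). They were 55.6% and 33.3% in chemoresistant cells (48.2% and 29.4%) and 66.7% and 22.2% between the DTP groups (29.5% and 32.3%). The 19 other V-ATPase genes tested, described below, did not share that excess, with 15.8% higher and 36.8% lower between the DTP groups.

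**Figure D4:**
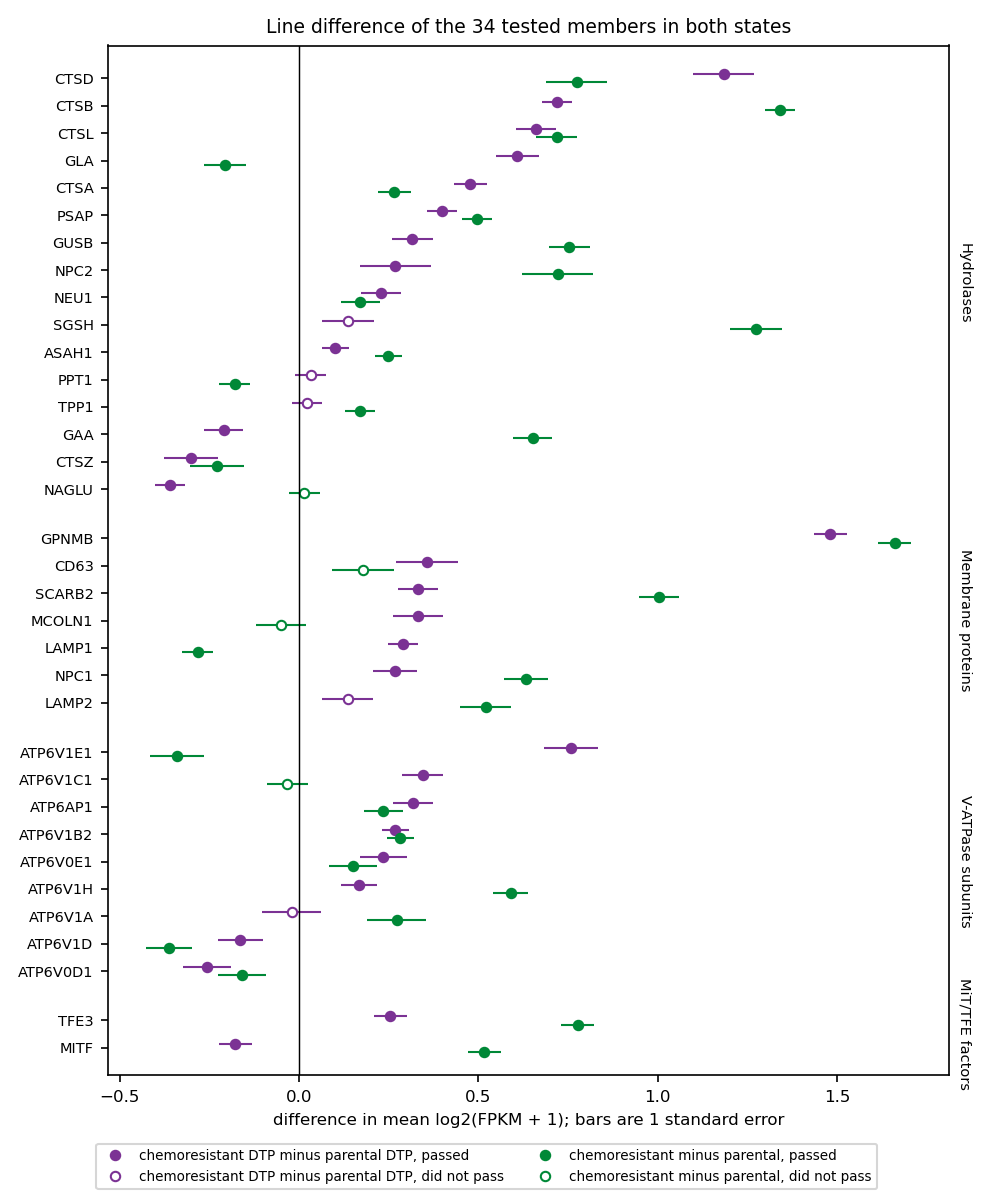
Line difference of the 34 tested members (rows, by class) as the difference in mean log2(FPKM + 1) (x axis) with 1 standard error (bars), for chemoresistant DTP minus parental DTP (purple) and chemoresistant minus parental cells (green), where filled points passed. GPNMB lies at 1.48 and 1.66, and GAA, GLA, LAMP1, ATP6V1E1 and MITF passed on opposite sides of 0 in the 2 states.

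In all, 9 members were called in opposite directions in the 2 DTP comparisons, and the DTP changes themselves differed past the threshold in each. How many of all genes tested were so called was not counted. The 9 are therefore not shown to be unusual. Over all genes, the difference of the DTP changes was positive in 20.5% and negative in 43.4%. That is another measure and gives no background for the 9. CTSB, GAA, SGSH, NAGLU, GUSB and SCARB2 were lower in chemoresistant DTP and higher in parental DTP, each against its own line. GLA, LAMP1 and ATP6V1E1 were higher in chemoresistant DTP and lower in parental DTP. The parental DTP calls of NAGLU, GUSB and ATP6V1E1 were among those that depended on the setting or on single libraries, as given above. A further pair of differences between DTP changes was narrow. That of TPP1 (-0.15 ± 0.06, limma adjusted p = 0.0344) was lost without any of 10 single libraries (adjusted p up to 0.071), which were parental 1, 2 and 4, chemoresistant 1 and 3, parental DTP 1, 2 and 4, and chemoresistant DTP 2 and 4. That of ATP6V1A (-0.29 ± 0.12, adjusted p = 0.0315) was lost without any of 8 (-0.33 to -0.23, adjusted p up to 0.0604), which were parental 2, chemoresistant 1, 4 and 5, parental DTP 5 and 6, and chemoresistant DTP 1 and 2. Without parental DTP 5 and 6 together it was -0.18 (adjusted p = 0.13). ATP6V1D (0.20 ± 0.09, adjusted p = 0.0554) passed without parental 2, chemoresistant 1 or 6, parental DTP 5 or chemoresistant DTP 5 (adjusted p down to 0.0125), without parental DTP 5 and 6 together (0.21, adjusted p = 0.0283), and when scaled by relative log expression (0.29, adjusted p = 0.00301). PSAP (-0.10 ± 0.06, adjusted p = 0.16) passed without chemoresistant DTP 2 (adjusted p = 0.0401). SGSH also passed between the DTP groups only without that library (0.20, adjusted p = 0.00905), against 0.14 ± 0.07 with it.

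The 6 members with GTCACGTG in their promoter window did not share a direction. In parental DTP against parental cells GAA was higher, CTSA, LAMP1, MCOLN1 and ATP6V0D1 were lower and CTSD did not pass, while TFE3 and MITF mRNA were higher. Of the 18 members with a window that lacked these letters, 6 were higher, 3 were lower, 8 did not pass and 1 was not tested. Over all genes tested, 45.8% were higher and 19.7% lower in this comparison. In chemoresistant DTP against chemoresistant cells, CTSD and LAMP1 were higher, CTSA, GAA and ATP6V0D1 were lower and MCOLN1 did not pass. There, 3 of the 18 were higher, 4 were lower, 10 did not pass and 1 was not tested, against 20.5% higher and 27.4% lower of all genes. For the difference of the DTP changes, 4 of the 6 were positive and 1 negative, and 3 and 8 of the 18 (20.5% and 43.4% of all genes). In chemoresistant against parental cells 3 of the 6 were higher and 2 lower, and 11 and 5 of the 18 (48.2% and 29.4%). Between the DTP groups 4 of the 6 were higher and 2 lower, and 12 and 3 of the 18 (29.5% and 32.3%). Whether the letters relate to the directions was not tested.

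Other genes linked to lysosomes, among them regulators, delivery factors and protease inhibitors, comprised 125 in 6 lists, of which 108 were tested. In parental DTP 44 were higher and 27 lower, with a median of 0.07, and in chemoresistant DTP 13 were higher and 38 lower, with a median of -0.07. In chemoresistant against parental cells 58 were higher and 27 lower (median 0.16), and in chemoresistant DTP against parental DTP 28 were higher and 27 lower (median -0.02). The medians of all genes in these comparisons were 0.14, -0.02, 0.14 and -0.02. Higher and lower shares of the 108 were 40.7% and 25.0% in parental DTP (45.8% and 19.7% of all genes), 12% and 35.2% in chemoresistant DTP (20.5% and 27.4%) and 53.7% and 25.0% in chemoresistant cells (48.2% and 29.4%). Between the DTP groups 25.9% were higher, against 29.5% of all genes and 67.6% of the tested members, and 25.0% were lower, against 32.3% of all genes.

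Among further hydrolases, DNASE2, the lysosomal DNase, averaged 28.97 ± 2.99 FPKM in chemoresistant DTP, 25.3 ± 1.21 in chemoresistant, 19.7 ± 0.95 in parental DTP and 8.22 ± 0.52 in parental cells (SD, n = 6 each). Its differences were 1.17 in parental DTP and 1.52 in chemoresistant cells, both against parental cells. CTSV, a cysteine protease related to CTSL, ran the other way, at 3.78 ± 0.48, 2.32 ± 0.17, 5.72 ± 0.36 and 8.66 ± 0.59 FPKM in the same order of groups. CTSV was lower by -1.54 in chemoresistant than in parental cells and higher by 0.52 in chemoresistant DTP than in chemoresistant cells. GM2A, the ganglioside activator protein, was higher in chemoresistant than in parental cells by 1.28 and lower in chemoresistant DTP than in chemoresistant cells by -0.56.

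The cystatins CSTA and CSTB, listed as inhibitors of cysteine cathepsins and not as parts of the lysosome, had the largest line differences in the further lists. CSTA averaged 130 ± 16.6, 139 ± 21.4, 55.6 ± 4.94 and 35.5 ± 3.18 FPKM in chemoresistant DTP, chemoresistant, parental DTP and parental cells. CSTB averaged 37.8 ± 5.74, 47.3 ± 3.32, 14.4 ± 1.25 and 12.1 ± 0.90 FPKM in that order. Both were thus higher in the chemoresistant line in both states, by 1.93 and 1.88 against parental cells and by 1.20 and 1.32 between the DTP groups. CSTA is also a known product of differentiating squamous epithelium.

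Of 19 other V-ATPase subunits and assembly factors tested, 7 were higher and 5 lower in parental DTP, led by ATP6V1C2 (0.88) and DMXL1 (0.85), an assembly factor. In chemoresistant DTP 2 were higher and 7 lower, led by CCDC115 (-0.52), also an assembly factor. Higher and lower shares were 36.8% and 26.3% in parental DTP, against 45.8% and 19.7% of all genes. In chemoresistant DTP they were 10.5% and 36.8%, against 20.5% and 27.4%. In chemoresistant against parental cells 10 were higher and 5 lower (52.6% and 26.3%, against 48.2% and 29.4%). Between the DTP groups 3 were higher and 7 lower in the chemoresistant one (15.8% and 36.8%, against 29.5% and 32.3%). Of 24 other membrane proteins and transporters, 11 were higher and 6 lower in parental DTP (45.8% and 25%, against 45.8% and 19.7% of all genes). The potassium and proton channel TMEM175 stood at 0.65 there and the endolysosomal cation channel TPCN1 at -0.53. TPCN1 was lower in chemoresistant than in parental cells by -1.17, and HGSNAT, an acetyltransferase of heparan sulfate breakdown, was higher by 0.99. SIDT2, a lysosomal membrane protein, was lower in chemoresistant DTP than in parental DTP by -1.03.

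Of 18 tested regulators that act on MiT/TFE factors or nutrient sensing at the lysosome, 7 were higher and 2 lower in parental DTP, and 1 higher and 4 lower in chemoresistant DTP. Their shares were 38.9% and 11.1% in parental DTP, against 45.8% and 19.7% of all genes. In chemoresistant DTP they were 5.56% and 22.2%, against 20.5% and 27.4%. The Ragulator subunits LAMTOR4 and LAMTOR1, parts of the scaffold that recruits mTORC1 to lysosomes, moved oppositely in parental DTP, by 0.63 and -0.48. LAMTOR4 was lower by -0.41 in chemoresistant DTP than in chemoresistant cells. Of 12 genes for delivery of hydrolases to lysosomes, 4 were higher and 4 lower in parental DTP, and the mannose phosphate receptor gene M6PR was lower there by -0.50 and CLN6 by -0.58. In chemoresistant DTP 1 was higher and 3 lower. The shares of these delivery genes were 33.3% each in parental DTP, against 45.8% higher and 19.7% lower of all genes. In chemoresistant DTP they were 8.33% higher and 25% lower, against 20.5% and 27.4%.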

How the data were processed

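RNA was extracted with TRIzol and sequenced after standard Illumina preparation, per the labels' protocols. The authors deposited FPKM values in 1 table with a column per library, per the file headers. The submitters' processing notes name the build GRCh38. Which aligner, counter, annotation and strand setting were used is not given in the sources used here. Of 61274 lines, 23 held no values. All 41101 genes with a value gave whole reads (within 0.02 reads or a relative 5e-08), which served to state depth only. Where no read was seen, up to 3 reads (0.079 to 0.201 CPM by library) remain possible from counting error alone. Coordinates and overlaps came from GENCODE release 29, which held 58337 of the gene identifiers.

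Groups and replicate numbers came from the sample titles. log2(FPKM + 1) was fitted with limma 3.58.1 and a mean-variance trend in R 4.3.3, with 4 group means over all 24 libraries. Genes whose mean reached 1 FPKM in any group were tested, two-sided, with Benjamini-Hochberg adjustment over the 13729 genes within each of 5 comparisons and a threshold of 0.05. The 2-fold count took an absolute difference of at least 1 on the log2(FPKM + 1) scale, not a ratio of FPKM. The script was tested on simulated data. Alternatives were a pseudocount of 0.1, no filter, a filter at 5 FPKM, relative log expression scaling, only the compared libraries, a replicate block, no trend, leaving out each library, and leaving out parental DTP libraries 5 and 6. All 36 members are named, together with up to 4 genes of each further list and comparison, those past the threshold with the largest difference whose higher group averaged 1 FPKM or more. A gene picked by that rule is not reported here. The members and lists were chosen with earlier results of these data known. Promoter windows came from RefSeq. Protein sequences were not used here.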

Additional observations from a re-analysis of the deposited data

Results flagged for a closer look

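In 18 of the 144 groups of 6 values examined, 1 library lay apart from the other 5 by Dixon's test, which chance does in about 1 in 20 groups. Library 2 of chemoresistant DTP held 9 of the 18. There it was high for CTSA (10.8 FPKM), CTSD (38.8), NPC2 (32.2), CD63 (105), ATP6V1E1 (44.2) and ATP6V0E1 (89.5), and low for SGSH (3.28), NPC1 (9.47) and ATP6V1B2 (10.6). Library 5 of parental DTP held 5, high for PPT1 (36.3), LAMP2 (7.84) and SCARB2 (3.48) and low for NPC2 (15.9) and MCOLN1 (2.68). The others were GUSB at 12.1 in parental DTP library 6, MCOLN1 at 5.09 in chemoresistant DTP library 1, ATP6V0E1 at 64.1 in chemoresistant library 2 and CD63 at 74.6 in parental library 4.

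The DTP change differed between the lines, by the limma test of the difference itself, in 24 of 34 members. Values are the change in the chemoresistant line minus that in the parental line. The difference was positive in 8 (23.5%, against 20.5% of all genes tested) and negative in 16 (47.1%, against 43.4%). These shares were close to the background. Among hydrolases and lumenal proteins the values were -1.14 for SGSH, -0.86 for GAA, -0.62 for CTSB, -0.45 for NPC2, -0.44 for GUSB, -0.37 for NAGLU, -0.15 for TPP1 and -0.15 for ASAH1, and 0.82 for GLA, 0.41 for CTSD, 0.21 for CTSA and 0.21 for PPT1. Among membrane proteins they were -0.67 for SCARB2, -0.39 for LAMP2, -0.36 for NPC1, -0.18 for GPNMB, 0.57 for LAMP1 and 0.38 for MCOLN1. V-ATPase subunits gave 1.10 for ATP6V1E1, 0.38 for ATP6V1C1, -0.42 for ATP6V1H and -0.29 for ATP6V1A, and the factors -0.69 for MITF and -0.52 for TFE3. Under relative log expression scaling the differences of TPP1 (-0.05), ASAH1 (-0.07), NPC2 (-0.35) and ATP6V1A (-0.20) no longer passed, and that of ATP6V1D passed (0.29, limma adjusted p = 0.00301, against 0.20 and 0.0554).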

How the results depend on the processing

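No member difference past the threshold changed sign under any alternative run. Some near 0 that did not pass changed sign when 1 library was left out, such as CTSD in parental DTP (-0.08 to 0.01). The count of members changed at least 2-fold in parental DTP against parental cells was 2 with a pseudocount of 0.1 FPKM, against 0, and that in chemoresistant DTP against parental DTP was 1 with a filter at 5 FPKM, against 2, because GPNMB then falls under the filter. The other counts of members stayed within 1.5 times of the reported value. Leaving out 1 library at a time, members higher and lower were 14 to 14 and 7 to 9 in parental DTP against parental cells, 4 to 6 and 9 to 12 in chemoresistant DTP against chemoresistant cells, 22 to 24 and 6 to 7 in chemoresistant against parental cells, 22 to 24 and 5 to 6 in chemoresistant DTP against parental DTP, and 8 to 9 and 14 to 16 for the difference of the DTP changes. Of 170 member results, leaving out 1 library ended 11 calls and added 11, and the other alternatives ended 17 and added 8. Relative log expression scaling gave 10 members higher and 11 lower in parental DTP against parental cells, and over all genes 5171 higher and 3658 lower, against 6283 and 2711. Without chemoresistant DTP library 2, members higher and lower were 6 and 12 in chemoresistant DTP against chemoresistant cells. Replicate numbers did not pair the samples, as correlations of deviations between same-numbered libraries ran from -0.385 to 0.403 over 36 pairs (median 0.03). With the replicate number as a block, members higher and lower were 14 and 9, 5 and 10, 22 and 7, 23 and 6, and 8 and 15 in the 5 comparisons, in the order above. The block ended the calls of TPP1 in chemoresistant DTP (adjusted p = 0.0679), ATP6V0E1 in chemoresistant cells (0.0663) and TPP1 for the difference (0.0574) and added PPT1 in parental DTP (0.0421). Without the filter, the fit counted 11775 genes higher in chemoresistant against parental cells, against 6614, and 9290 lower for the difference of DTP changes, against 5952. With the filter at 5 FPKM the counts were 2951 higher in parental DTP against parental cells (6283 as reported), 1845 lower in chemoresistant DTP against chemoresistant cells (3766), 3174 higher in chemoresistant against parental cells (6614), 2431 higher and 2464 lower in chemoresistant DTP against parental DTP (4051 and 4441) and 2738 lower for the difference (5952). These 2 settings test 41101 and 7540 genes.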
